A study of Mus musculus with 108 samples.

Results

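Opposite-strand transcripts are genes that carry the name of another gene followed by os, os1, os2 or os3, because they were annotated on the other strand of that gene's locus. The gene at the front of the name is called the sense gene here, so that Igf1os has Igf1 as its sense gene. The members were selected on their counts: the name had to match in this way, and at least 10 reads had to be counted in 3 or more polyA or RiboMinus libraries. Of 55573 genes in the files, 297 had such a name and 135 of these reached the count, while 20946 genes of any name reached it. The 135 members carry 134 distinct symbols, since Tmem147os stands on 2 gene identifiers, and they belong to 130 sense genes. Irx3os, Slmapos2 and Prss23os were just inside the threshold, each with exactly 3 such libraries and with highest counts of 13, 20 and 53. Efhd1os, Atcayos and Plxna4os2 were just outside it, with 2 such libraries each and highest counts of 11, 29 and 26.

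RNA was sequenced from single mouse oocytes of females whose oocytes lack Exosc10 (cKO) and of control females. The labels used here give the knockout as oocyte-specific and do not name the alleles, the Cre driver, the strain or the age of the females. PolyA libraries, which start from polyadenylated RNA, were made from fully grown oocytes with an intact germinal vesicle (GV, 15 cKO and 7 control), from oocytes cultured for 3 hours (GV3h, 11 and 8) and from ovulated eggs in metaphase of the second meiotic division (MII, 15 and 8). RiboMinus libraries, which take total RNA with ribosomal RNA removed, were made at GV (7 cKO and 8 control) and at MII (4 and 3). These are the 10 groups compared. Oocytes came from 2 cKO and 2 control females at polyA GV, 3 and 3 at polyA GV3h and MII, 2 and 2 at RiboMinus GV, and 2 and 1 at RiboMinus MII. The female was the replicate in the tests reported here, so their p-values measure the spread between females. Where a value with oocytes as replicates or with voom on single oocytes is given, it is named as such.

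EXOSC10 is a ribonuclease of the nuclear RNA exosome, the complex that trims and degrades RNA in the nucleus from its 3′ end. Its known substrates include the precursors of ribosomal RNA and short-lived noncoding transcripts, among them RNA made upstream of and antisense to active promoters. Mammalian promoters commonly start transcription in both directions, and the upstream product is usually degraded soon after it is made. A fully grown oocyte stops transcribing before it resumes meiosis, so that the RNA of an egg is what was stored and not yet degraded.

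The members lie opposite their sense genes in different ways. In the GENCODE M21 annotation of GRCm38, the build that the submitters' processing notes name as mm10, 90 of the 135 (66.67%) share exon bases with the sense gene. A further 18 overlap its span without sharing exon bases, 20 start upstream and run away from it, and 7 run towards its end without reaching it. The start site of 63 members lies within 1000 bases of a start site of the sense gene. GENCODE classes 107 members as antisense, 8 as lincRNA, 7 as processed transcripts, 2 as bidirectional promoter lncRNA and 1 as TEC. The other 10 are protein-coding, among them Myocos, Slc7a6os, Cebpzos, Wdr83os, Trpc5os, Ccpg1os, Brd3os, Cdiptos and Fancd2os, so the noncoding label does not hold for these 10.

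Whether reads were counted by strand is not stated in the sources used here. Of 36 genes whose exons lie wholly under exons of an opposite-strand gene with a mean of at least 1000 counts, 10 had under 10 counts in every library and 2 had 0. Among the members, 103 share some exon bases with another gene and 12 share at least 50% of theirs, and on those bases the reads of a member and of its neighbour cannot be told apart without strand. The sense gene is therefore given beside the members on which the results turn.

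The starts of 5 members on which the results turn are shown, because they differ in where they lie and in what they are made of. RefSeq's table for GRCm38.p6 holds a window of 300 bases, from 250 before to 50 after the start, for 92 of the 135 members. Cep83os (chr10:94688564-94688653, minus strand) and B9d1os (chr11:61505037-61505143, minus strand) start 78 and 85 bases from their sense genes in GENCODE and run the other way. RefSeq places both starts nearer to the sense gene, and their windows are printed up to the base before its first exon, 40 and 57 bases before the RefSeq start. Kank4os (chr4:98793518-98793817, plus strand) and Igf1os (chr10:87863344-87863643, minus strand) start inside the span of the sense gene, 22293 and 2052 bases from its nearest start. Arhgap20os (chr9:51875836-51876135, minus strand) starts 44016 bases away. The genes themselves span chr10:94671025-94688576 (Cep83os), chr11:61504386-61505059 (B9d1os), chr4:98793768-98798900 (Kank4os), chr10:87826377-87863381 (Igf1os) and chr9:51832814-51875886 (Arhgap20os). Sequences are 5′ to 3′ on the strand of the member, in lower case, with CG and TATAAA in capitals.
Cep83os: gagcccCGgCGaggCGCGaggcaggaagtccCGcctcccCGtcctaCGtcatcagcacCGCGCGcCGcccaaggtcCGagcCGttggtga
B9d1os: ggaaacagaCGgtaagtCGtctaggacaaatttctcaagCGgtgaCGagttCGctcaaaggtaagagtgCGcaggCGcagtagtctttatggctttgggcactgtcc
Kank4os: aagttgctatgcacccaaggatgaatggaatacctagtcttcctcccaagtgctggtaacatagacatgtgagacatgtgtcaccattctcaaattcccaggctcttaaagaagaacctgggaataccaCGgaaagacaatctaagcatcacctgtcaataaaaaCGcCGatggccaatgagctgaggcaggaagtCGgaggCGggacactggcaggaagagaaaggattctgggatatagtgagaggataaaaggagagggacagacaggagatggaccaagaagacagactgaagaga
Igf1os: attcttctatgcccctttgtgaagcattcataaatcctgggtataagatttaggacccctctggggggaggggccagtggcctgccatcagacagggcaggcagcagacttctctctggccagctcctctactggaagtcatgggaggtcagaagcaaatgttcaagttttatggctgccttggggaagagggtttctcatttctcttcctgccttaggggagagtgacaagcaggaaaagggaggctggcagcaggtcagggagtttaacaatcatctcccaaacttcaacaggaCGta
Arhgap20os: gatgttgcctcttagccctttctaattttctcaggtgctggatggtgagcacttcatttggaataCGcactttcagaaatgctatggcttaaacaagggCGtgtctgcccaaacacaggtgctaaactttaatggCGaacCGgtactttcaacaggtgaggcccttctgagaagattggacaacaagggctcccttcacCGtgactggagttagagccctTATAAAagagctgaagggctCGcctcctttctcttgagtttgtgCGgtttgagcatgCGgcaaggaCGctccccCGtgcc

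The stretch of Cep83os holds 13 CG in 90 bases and that of B9d1os 7 in 107 bases. The windows of Kank4os, Igf1os and Arhgap20os hold 5, 1 and 10 CG in 300 bases. TATAAA stands in the Arhgap20os window with its first base 30 bases before the start and in none of the other 4 stretches. Over 32851 RefSeq windows of the same length the median number of CG was 7, and 94.6% held at least 1. The median was 17 over the 47 members that start within 1000 bases of a sense start and 5 over the 45 that start farther away. That distance is taken from GENCODE starts, while the windows lie at RefSeq starts, which for some members are far from them. TATAAA, read on either strand, was in 13.6% of all windows and in 7 of the 92 member windows (7.61%). These letters are a description of the windows and not evidence of a factor.

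Gene counts per oocyte ranged from 4638718 to 8735914 in polyA and from 12319658 to 62675760 in RiboMinus libraries. Exosc10 checked the labels: its median was 47.4 to 131 CPM (counts scaled to library size) in the 5 control groups, while no cKO oocyte passed 8.3 CPM, and its log2 change was between -7.5 and -5.34 with an edgeR adjusted p of at most 0.00366 in each of the 5 comparisons. The 12 oocyte markers summed to between 7281 and 30620 CPM in every oocyte, the 12 granulosa and cumulus markers to between 19.6 and 141 CPM, and the 8 stroma, blood and endothelium markers to between 24.9 and 196 CPM. Members took a small part of the gene counts. Their median share was 0.159% in polyA GV control oocytes and 0.133% in cKO oocytes, 0.145% and 0.134% at GV3h, and 0.0829% and 0.0822% at MII. In RiboMinus libraries it was 0.116% in control and 0.0948% in cKO oocytes at GV, and 0.132% and 0.104% at MII.

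A few members held most of the signal. In polyA libraries Myocos, a small protein-coding gene opposite the myocilin gene, had the highest mean level per length, 268 CPM per kb, and took 22.6% of all member counts, as a mean over all stages. In polyA MII controls it was below Arhgap20os, with 63.4 against 126 CPM per kb. Arhgap20os (80 CPM per kb) came next, and then Usp46os2 (46.8), Kdm6bos (45.5) and Slc7a6os (31.3), which encodes a factor for nuclear import of RNA polymerase II. In RiboMinus libraries Arhgap20os stood first with 97.4 CPM per kb, before Myocos (69.7), Kdm6bos (39.4), Usp46os2 (37.3) and Uchl1os (29.6), again as a mean over both stages and genotypes. At RiboMinus MII Myocos was above Arhgap20os, with 170 against 126 CPM per kb in controls and 58.1 against 47.1 in cKO eggs. Uchl1os is the antisense RNA of the ubiquitin hydrolase gene Uchl1, known for raising translation of its sense mRNA. Ube4bos1 was among the 5 members of highest mean CPM in RiboMinus (83.5 CPM) and not in polyA libraries, where its group medians were between 9.5 and 19.9 CPM. Most members were below their sense gene: per kb, the member was above the sense gene in 29 of 97 pairs in polyA GV control oocytes and in 31 of 125 in RiboMinus GV controls. Igf1os was among the exceptions, with 8.17 CPM per kb in polyA GV controls where Igf1 had 0.102, and so was Arhgap20os, with 124 where Arhgap20 had 2.55.

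A gene was tested when it had at least 10 counts in at least 3 oocytes of a library type. That left 97 members in polyA and 125 in RiboMinus libraries, 93 of them in both. Asb17os, Dnah2os, Igf2os, Prox1os, Prss23os and Slmapos2 passed the membership rule only over both library types together and were tested in neither. A gene was called at an edgeR quasi-likelihood p, Benjamini-Hochberg adjusted over all genes tested, under 0.05. A member that passed the count in a single group had to be high there, so the counts below describe the members tested and are set beside those of all genes. Among the members called between genotypes, Kank4os, B9d1os, Evx1os, Runx2os1 and Slc13a2os in polyA and Ppifos in RiboMinus libraries had under 3 control oocytes at 10 counts and were tested through the cKO oocytes, and Rapgef4os2 was tested through the controls. Their calls are given as descriptions of members that had to be high on that side.

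Between cKO and control polyA oocytes, members rose and fell in shares near or below those of all genes. At GV 2 of 97 members rose and 4 fell, where 3.92% of all tested genes rose and 4.37% fell. At GV3h 8 rose and 9 fell, against 13.2% and 13.6% of all genes. At MII 13 rose and 4 fell, against 12.9% and 7.68% of all genes. With library totals in place of TMM scaling (trimmed mean of M-values) GV oocytes had a split of 3 and 3, GV3h oocytes of 13 and 6, and MII eggs of 13 and 4, as the median of all genes moved from 0.07 to 0.25, from 0.06 to 0.28 and from 0.11 to 0.21 on the log2 scale. The GV count rests on few females: it was 1 without cKO female V857, 11 without cKO female V888, 3 without control female V856 and 1 without control female V889, each of which leaves 1 female in a group, assumed to vary like the other groups. The GV3h count was 10 without cKO female V946, 11 without cKO female V993 and 10 without control female V951.

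In all, 32 members were called in at least 1 of the 5 genotype comparisons, 18 higher, 13 lower and Myocos in both directions. That is 24.8% of the 129 members tested in either library type, where 39.5% of 20352 genes were called in at least 1. Igf1os, Arhgap20os and Cep83os were called in 3 of them, and 6 others in 2.

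**Figure D1:**
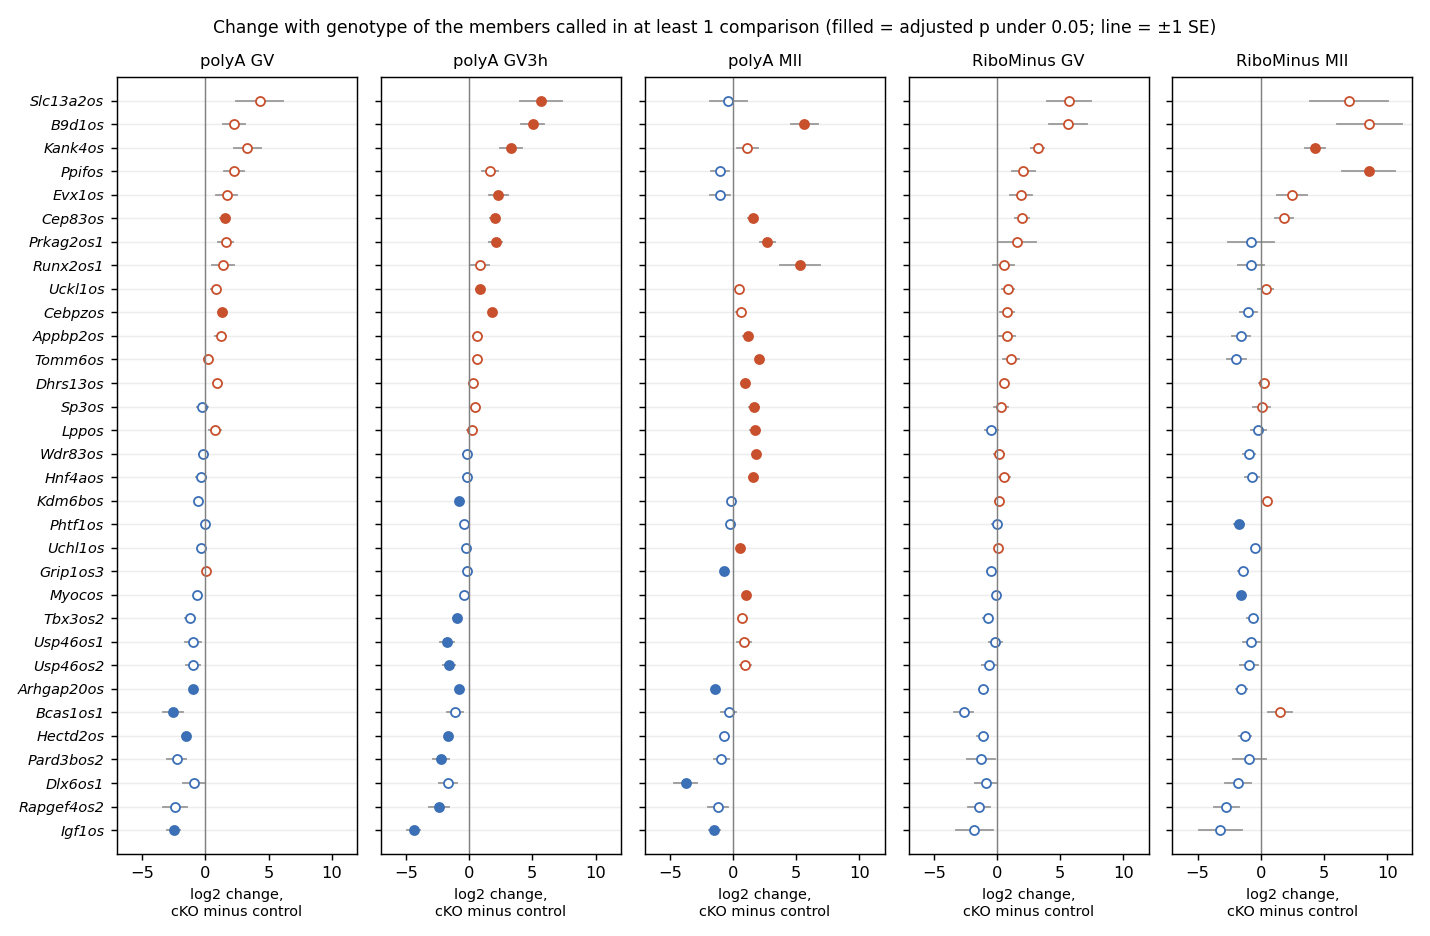
Log2 change between cKO and control (horizontal axis, 1 panel per comparison) for the 32 members called in at least 1 genotype comparison (vertical axis), with lines of 1 SE either side and filled points where the adjusted p was under 0.05. Igf1os and Arhgap20os lie left of 0 and Cep83os, B9d1os and Kank4os right of 0 in all 5 panels, and no point is filled in the RiboMinus GV panel.

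Igf1os, opposite the gene of insulin-like growth factor 1, a peptide hormone that acts on ovarian follicles, was the member with the largest falls at GV3h. At polyA GV the 7 control oocytes had 15.2 CPM at the lowest, 22.5 at the median and 25.8 at the highest, and the 15 cKO oocytes 0, 3.09 and 13.1 CPM. At GV3h the controls had 7.44, 15.1 and 25 CPM and the cKO oocytes 0, 0.52 and 2.52 CPM. At MII they had 10.6, 20.9 and 35.5 CPM against 2.58, 9.18 and 19.3 CPM. No cKO oocyte reached the lowest control at GV and GV3h, and the groups overlapped at MII. The log2 change was -2.51 ± 0.53 (SE, edgeR adjusted p = 0.0118) at GV, -4.41 ± 0.49 (5.48e-05) at GV3h and -1.49 ± 0.42 (0.021) at MII. Without cKO female V857 the adjusted p at GV was 0.0629 and without control female V889 it was 0.087, so the call was lost, as it was in the fit of GV females alone (0.129). At MII it lay between 0.0506 and 0.0786 without cKO female V841 or V842 or control female V853 or V896. Igf1 itself was not called in any genotype comparison, and its median was 0.869 CPM in control and 1.94 CPM in cKO oocytes at polyA GV. Exons of Igf1os share no bases with those of Igf1. Granulosa and cumulus markers summed to a median of 49.6 CPM in control and 51.8 CPM in cKO oocytes at polyA GV, 48.6 and 42.5 CPM at GV3h, and 111 and 96.1 CPM at MII. Their part in the Igf1os result was not tested.

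In RiboMinus GV libraries Igf1os ranged from 6.23 to 14.9 CPM in the 8 controls. The cKO females differed from each other: oocytes of V1126 had a mean of 6.9 CPM and those of V1131 a mean of 0.0134 CPM. The log2 difference was -1.79 ± 1.46 (SE, edgeR adjusted p = 0.544). Igf1os was called lower under 3 of 12 alternatives: with no filter on low counts (0.0201), with voom (0.0117) and without V1126 (0.0154), which leaves 1 cKO female with its spread taken from the other groups and so is no replicated comparison. At RiboMinus MII the 3 controls had 9.93, 11 and 26.6 CPM, all above the 4 cKO oocytes, which lay between 0.986 and 3.26 CPM, and the difference did not pass the test (log2 -3.21 ± 1.69, adjusted p = 0.22). It was called under 4 of 17 alternatives: with no filter (1.27e-05), with voom (0.00541), with oocytes as replicates (0.00609) and in the fit of only these groups (0.0151).

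Among the members called lower between genotypes in polyA libraries, Arhgap20os was the most abundant. Arhgap20 encodes a GTPase-activating protein, and its antisense partner starts far from it and ends within it. Control oocytes had 311, 327 and 350 CPM (lowest, median and highest) at polyA GV and cKO oocytes 107, 168 and 268 CPM. At GV3h the values were 224.4, 282 and 351 CPM against 83.4, 165 and 224.3 CPM, and at MII 254, 340 and 394 CPM against 106, 124 and 179 CPM. No cKO oocyte reached the lowest control at any of the 3 stages, though at GV3h the nearest lay just under it. The log2 change was -0.95 ± 0.15 (SE, edgeR adjusted p = 0.00344) at GV, -0.81 ± 0.12 (0.000295) at GV3h and -1.43 ± 0.12 (6.15e-06) at MII. The GV call was lost when the fit held the GV females alone (adjusted p = 0.139), and the calls at GV3h and MII held under every alternative run. Arhgap20 fell with it, by 0.79 at GV, 1.03 at GV3h and 1.27 at MII on the log2 scale. Of the exon bases of Arhgap20os, 6.12% lie under exons of Arhgap20. In RiboMinus GV libraries 1 cKO oocyte had 361 CPM, within the range of the controls, whose highest had 407 CPM, while the cKO median was 108 CPM, and the log2 difference was -1.09 ± 0.36 (adjusted p = 0.207). It was called under 5 of 12 alternatives: with no filter (0.0021), DESeq2 (0.0484), voom (0.00988), oocytes as replicates (0.00725) and without V1126 (0.02), again with 1 cKO female left. At RiboMinus MII the 3 controls (319, 322 and 361 CPM) lay above the 4 cKO oocytes (104 to 149.8 CPM), with a log2 difference of -1.53 ± 0.42 (adjusted p = 0.0561). It was called under 6 of 17 alternatives: with no filter (5.89e-05), DESeq2 (0.00988), voom (0.00206), oocytes as replicates (0.000669), the fit of only these groups (0.0406) and without control oocyte V1145_3 (0.0497). Under the other 11 the adjusted p lay between 0.0509 and 0.11.

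Cep83os rose while its sense gene fell. Cep83 encodes a protein of the distal appendages of the centriole, needed to dock the centriole for cilium formation, and Cep83os starts next to it on the other strand. At polyA GV the control oocytes had 3.17, 4.54 and 7.85 CPM and the cKO oocytes 3.96, 14.4 and 23.1 CPM. At GV3h the values were 2.2, 3.71 and 6.89 CPM against 6.67, 19.8 and 30.3 CPM, and at MII 0.172, 4.74 and 7.64 CPM against 2.61, 12.5 and 23.3 CPM. Single oocytes of the groups overlapped at each stage, and the means of the females did not. The log2 change was 1.53 ± 0.41 (SE, edgeR adjusted p = 0.0317) at GV, 2.01 ± 0.34 (0.000694) at GV3h and 1.55 ± 0.34 (0.00531) at MII. The GV call was lost without cKO female V857 or control female V856 or V889, with voom (0.0788) and in the fit of GV females alone (0.175). Cep83 fell by 0.82 ± 0.21 on the log2 scale at GV (adjusted p = 0.0264) and by 1.29 ± 0.17 at GV3h (0.000155), and was not called at MII (log2 -0.25 ± 0.17, 0.315). The pair shares no exon bases. In RiboMinus libraries Cep83os had a median of 3.29 CPM in controls and 17.2 CPM in cKO oocytes at GV (log2 difference 1.99 ± 0.55, adjusted p = 0.161), called with no filter (0.0034), DESeq2 (0.00802) and oocytes as replicates (0.00163) of 12 alternatives. At RiboMinus MII the 3 controls (1.27, 1.44 and 3.45 CPM) lay below the 4 cKO oocytes (3.49 to 15.8 CPM), and the log2 difference was 1.86 ± 0.72 (adjusted p = 0.118). It was called under 3 of 17 alternatives, with no filter (0.0375), with DESeq2 (0.0282) and without cKO female V1167 (0.0398), but the last sets 1 female against 1, with the spread taken from the other groups. Cep83 fell at RiboMinus MII by 1.53 ± 0.34 (0.0367).

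B9d1os and Kank4os were near 0 in controls. Of B9d1os, 27 cKO and 0 control polyA oocytes reached 10 counts, so it was tested only through the cKO oocytes and its calls are no independent support for a difference. B9d1 encodes a protein of the ciliary transition zone, and B9d1os starts beside it in the other direction. At polyA GV3h the 8 controls had at most 0.359 CPM and a median of 0, and the 11 cKO oocytes had 0.682, 2.64 and 6.73 CPM, so no oocyte of the groups overlapped. At MII 7 of the 8 controls were at 0, and the cKO oocytes had a median of 0.651 and a highest value of 2.64 CPM. The log2 change at GV3h was 5.01 ± 0.88 (SE, edgeR adjusted p = 0.000821). At MII B9d1os was called (0.00202) from 95 counts in cKO and 1 count in control oocytes, a ratio of 49 relative to gene counts with a 95% counting interval of 8.59 to 1960. At polyA GV the difference did not pass the test (adjusted p = 0.111). In RiboMinus MII libraries all 3 controls were at 0 and the 4 cKO oocytes between 0.0987 and 1.31 CPM, which did not pass the test (0.0673). B9d1 was not called in any of the 5 comparisons.

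Kank4os lies inside Kank4, the gene of an ankyrin repeat protein, which was listed at a median of 0 CPM in every polyA group. At polyA GV3h the controls had 0.363, 0.777 and 1.65 CPM and the cKO oocytes 1.15, 8.43 and 23 CPM, with a log2 change of 3.29 ± 0.85 (SE, edgeR adjusted p = 0.0102). In polyA libraries 27 cKO oocytes and 1 control reached 10 counts, so Kank4os too was tested there through the cKO oocytes. The GV3h call was lost without cKO female V993 (0.0572). At GV the medians were 0.444 and 4.42 CPM (adjusted p = 0.0587), and at MII 0 and 0.759 CPM (0.374). At RiboMinus MII the 3 controls had 0.155, 0.195 and 0.533 CPM and the 4 cKO oocytes between 2.88 and 8.52 CPM, a rise of 4.29 ± 0.78 (0.0251). The oocytes did not overlap there, but the 3 controls came from 1 female, and the call was lost with voom (0.0609).

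**Figure D2:**
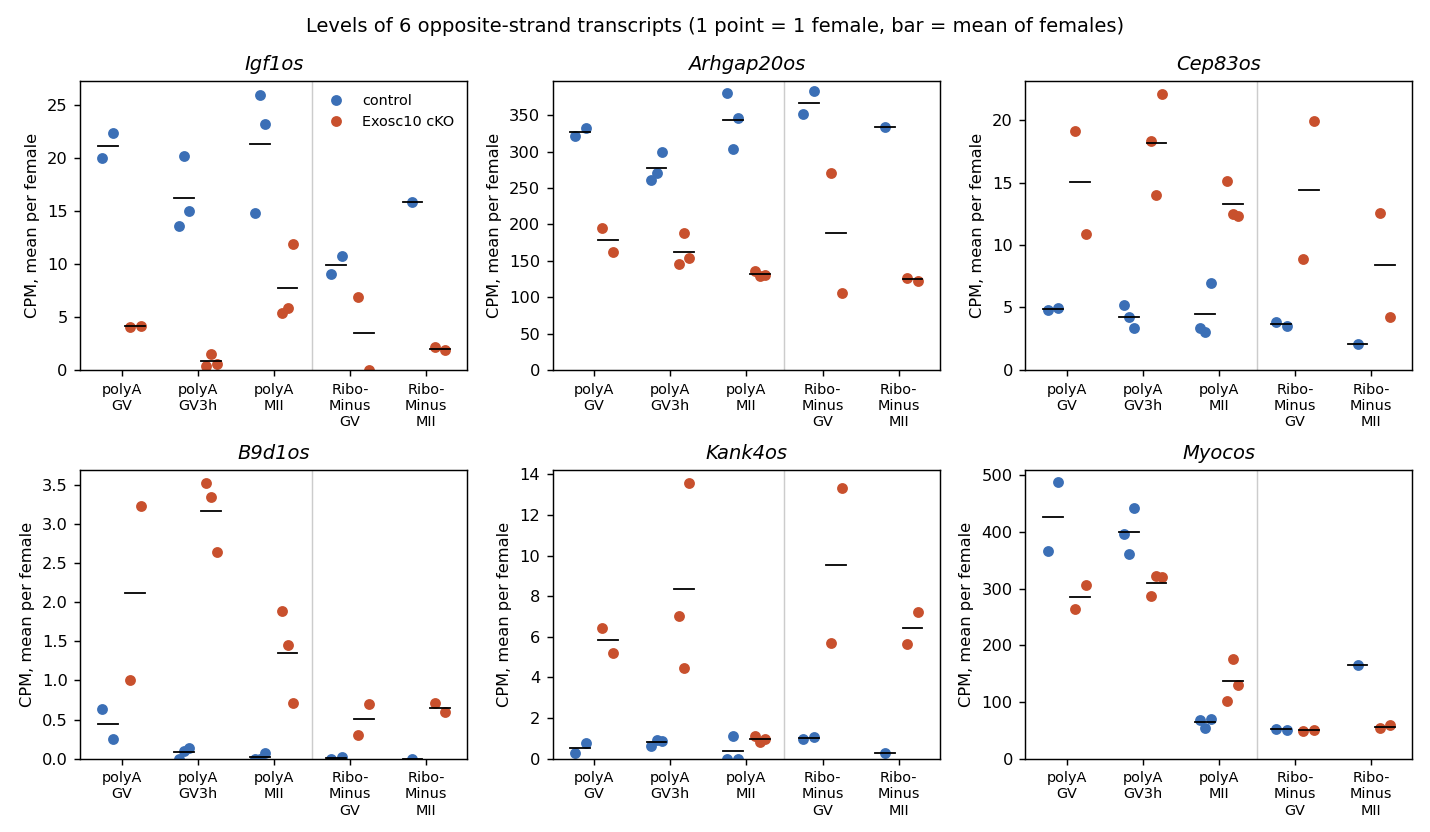
Mean CPM per female (vertical axis, linear from 0; 1 point per female, bar at the mean of females) of Igf1os, Arhgap20os, Cep83os, B9d1os, Kank4os and Myocos in the 10 groups (horizontal axis, library type and stage, control in blue and cKO in orange). The cKO females lie below the controls for Igf1os and Arhgap20os and above them for Cep83os and B9d1os in each library type and stage, and Myocos changes side between polyA GV and MII.

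Other members fell together with their sense genes. Hectd2os, opposite a gene of the HECT family of ubiquitin ligases, had medians of 10.7 CPM in control and 4.36 CPM in cKO oocytes at polyA GV and of 8.65 and 3.02 CPM at GV3h, with no overlap of oocytes at either stage. It fell by 1.54 ± 0.34 (SE, edgeR adjusted p = 0.014) and 1.65 ± 0.28 (0.000702) on the log2 scale, and Hectd2 fell by 1.51 and 1.75. At GV3h the same direction was called for the pair in Usp46os1 (log2 -1.73), Usp46os2 (-1.63), Tbx3os2 (-1.0), Kdm6bos (-0.82) and Rapgef4os2 (-2.37). Usp46os1 and Usp46os2 share 1 sense gene, the deubiquitinase gene Usp46, and are not independent of each other. Rapgef4os2 reached 10 counts in 4 control and 0 cKO oocytes. Its call (adjusted p = 0.0374) was kept under 6 of 13 alternatives, and was lost without cKO female V983 or V993 or control female V951, V982 or V995. Bcas1os1 fell at GV (log2 -2.56 ± 0.76, adjusted p = 0.0494) with Bcas1, a call kept under 3 of 11 alternatives and lost without any of the 4 GV females and in the fit of GV females alone (0.182). The GV call of Hectd2os was lost in that fit (0.163) and without cKO female V857 or control female V889 (0.0855 and 0.119). Pard3bos2 fell at GV3h (-2.25 ± 0.64, 0.0168), though not without cKO female V946 or V993, while Pard3b was not called (0.0671). Dlx6os1 fell at MII, where 12 of 15 cKO oocytes and 1 of 8 controls were at 0 (log2 -3.75 ± 0.91, 0.00973). Dlx6, a homeobox gene, was below the count needed for a test in polyA libraries.

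Among the members that rose, Cebpzos and Prkag2os1 were called in 2 comparisons. Cebpzos is protein-coding and lies opposite Cebpz, the gene of a ribosome biogenesis and CCAAT-binding factor. Its medians were 10.9 CPM in control and 23.3 CPM in cKO oocytes at GV and 8.61 and 30.2 CPM at GV3h, where the groups did not overlap. The log2 change was 1.34 ± 0.37 (SE, edgeR adjusted p = 0.0357) and 1.83 ± 0.31 (0.000628). The GV call was kept under 8 of 12 alternatives: it was lost in the fit of GV females alone and without cKO female V857 or control female V856 or V889, with a log2 change of 0.69 without V857. The GV3h call held under all 14. Cebpz fell at GV3h (log2 -0.63 ± 0.15, 0.00627), and at GV it was not called (0.0618). Prkag2os1, opposite the gene of a regulatory subunit of AMP-activated kinase, rose at GV3h (2.08 ± 0.51, 0.0075) and MII (2.71 ± 0.59, 0.00492), with Prkag2 called at neither. Its MII call was lost with oocytes as replicates and in the fit of MII females alone. At GV3h Evx1os also rose (2.31 ± 0.73, 0.028) with the homeobox gene Evx1, a call lost without cKO female V946 or V993 or any of the 3 control females, and 14 cKO oocytes and 2 controls reached 10 counts of it. Slc13a2os was counted 150 times in cKO and 1 time in control GV3h oocytes, a ratio of 79.8 with a 95% counting interval of 14.1 to 3170 (adjusted p = 0.0182), and its call was lost without cKO female V946 or control female V951 or V995. No control oocyte of GV or GV3h reached 10 counts of it, so it was tested only through the cKO oocytes. Uckl1os rose by 0.85 at GV3h.

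At polyA MII 4 of the 13 that rose had the sense gene called higher too, and 1 had it called lower. These rises are from polyA libraries. The RiboMinus MII changes of the same members, many of them lower, are given with Myocos below. Tomm6os rose from a median of 2.1 CPM in control to 9.11 CPM in cKO eggs (log2 2.05 ± 0.28, edgeR adjusted p = 0.000193), and Tomm6, a subunit of the mitochondrial outer membrane translocase, rose by 2.24. They share 7.44% of the exon bases of Tomm6os. Uchl1os (log2 0.58) with Uchl1 and Appbp2os (1.15) with Appbp2 rose too, as did Hnf4aos (1.59) with Hnf4a. Lppos rose (1.73 ± 0.43, 0.0107) while Lpp, the gene of a focal adhesion protein, fell by 1.11. The Lppos call was lost with no filter on low counts (0.075) and in the fit of MII females alone (0.132), where that of Hnf4aos was lost too. Wdr83os, which encodes a subunit of a membrane protein insertion complex of the endoplasmic reticulum, rose by 1.78 ± 0.31 (0.00124) with Wdr83 not called. Sp3os rose by 1.67 and Dhrs13os by 0.91, while Grip1os3 fell by 0.75. Runx2os1 was at 0 counts in all 8 controls and at 20 counts over the 15 cKO eggs, at least 3.44-fold higher against a floor of 3 counts over the group. No egg of either genotype reached 10 counts of it, and it was tested through 15 cKO oocytes and 1 control of GV and GV3h. That call (adjusted p = 0.029) was kept under 6 of 13 alternatives, and was lost without cKO female V841 or V897 or any of the 3 control females.

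Myocos was called in opposite directions in the 2 library types at MII. In polyA libraries its medians were 61.6 CPM in control and 129 CPM in cKO eggs, with overlapping ranges of 45.3 to 77.9 and 57.4 to 199.5 CPM. It rose by 1.04 ± 0.18 (SE, edgeR adjusted p = 0.000959). In RiboMinus libraries the 3 controls had 152, 163 and 180 CPM and the 4 cKO eggs between 52.9 and 62.2 CPM. There it fell by 1.59 ± 0.24 (0.0174), against a single control female whose spread between females is taken from the other groups. At GV the polyA medians were 412 CPM in control and 292 CPM in cKO oocytes (log2 -0.65 ± 0.21, 0.069), and the RiboMinus medians 52.5 and 45.2 CPM (-0.07 ± 0.2, 0.894). Other members called higher at polyA MII were also lower at RiboMinus MII, where none of them was called. Their log2 changes there were -1.96 (Tomm6os), -1.58 (Appbp2os), -0.961 (Wdr83os), -0.789 (Prkag2os1), -0.76 (Runx2os1), -0.727 (Hnf4aos), -0.427 (Uchl1os) and -0.206 (Lppos). The rest, Cep83os (1.86), B9d1os (8.6), Dhrs13os (0.253) and Sp3os (0.0605), were higher there and not called. Whether the library types differ was not tested, since they were counted and scaled apart.

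RiboMinus libraries gave few calls. At GV 0 of 125 members were called with edgeR, where 0.0203% of all genes rose and 0.00507% fell. Those shares are of the main fit, and none is given here for the other settings. At an unadjusted p under 0.05 there were 14, and the DESeq2 Wald test called 8. Without cKO female V1126 edgeR called 5. At MII 2 members rose (Kank4os and Ppifos) and 2 fell (Myocos and Phtf1os), where 5.37% of all genes rose and 5.25% fell. Under library totals the split was 3 and 1, with the median of all genes moving from 0.10 to 0.30 on the log2 scale. Phtf1os had 12.8, 22.9 and 30 CPM in the controls and 5.16, 6.02, 8.44 and 8.88 CPM in the cKO eggs, which do not overlap (log2 -1.74 ± 0.4, adjusted p = 0.039). Ppifos, opposite the cyclophilin gene of the mitochondrial matrix, was at 0 counts in the 3 controls and at 0, 0.036, 1.48 and 3.21 CPM in the 4 cKO eggs, at least 14-fold higher against a floor of 3 counts over the group (0.0443). Over both stages 8 cKO oocytes and 1 control reached 10 counts of Ppifos. The Phtf1os call was kept under 11 of 17 alternatives and the Ppifos call under 10 of 17, and both were lost without cKO female V1166, or without its oocyte V1166_1 or V1166_2. Without control oocyte V1145_4 the Phtf1os call was lost too, and without cKO oocyte V1167_2 that of Ppifos.

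The RiboMinus MII comparison rests on 1 control female, assumed to vary like the others. Its count was 17 without cKO female V1167, 2 without cKO oocyte V1166_2, 10 without control oocyte V1145_2 and 12 without control oocyte V1145_3. Markers of stroma, blood and endothelium moved with genotype there: they summed to between 84.8 and 116 CPM in the 4 cKO eggs and to between 24.9 and 30.1 CPM in the 3 controls. Of this sum, Pecam1 had medians of 83.9 and 26.8 CPM, and Col1a1 and Col3a1 had 6.31 and 3.21 CPM in cKO eggs and 0 in controls. In controls 6 of the 8 markers were at 0, and in cKO eggs 1. Their part in the RiboMinus MII results was not tested.

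Culture for 3 hours gave no call. For GV3h against GV, 0 members were called with edgeR in control and in cKO polyA oocytes, and 0.0% of all genes rose and 0.0% fell in either genotype. At an unadjusted p under 0.05, with the share of all genes not given here, there was 1 member in control and 2 in cKO oocytes. DESeq2 called 0 and 1.

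From GV to MII the share of members that fell was near that of all genes, and the share that rose was below it. In control polyA oocytes 8 of 97 rose and 27 fell, where 18.3% of all genes rose and 27.1% fell. In cKO oocytes 11 rose and 27 fell, where 19.6% and 27.9% of all genes did. Under library totals the splits were 3 and 37 in control and 4 and 40 in cKO oocytes, with the median of all genes moving from -0.23 to -0.67 and from -0.29 to -0.82 on the log2 scale. Of the 27 that fell, 11 in control and 13 in cKO oocytes were tested through the GV and GV3h oocytes, with under 3 MII eggs at 10 counts, so these had to be higher before MII. Summed markers of other cell types were higher at MII in both genotypes. Granulosa and cumulus markers went from a median sum of 49.6 to 111 CPM in control and from 51.8 to 96.1 CPM in cKO oocytes, and those of stroma, blood and endothelium from 69.95 to 146 CPM and from 85.8 to 144 CPM. Of these sums, Cyp19a1 had medians of 38.6 and 94.2 CPM in controls and Pecam1 of 69.7 and 145 CPM, while Amhr2, Fshr, Foxl2 and Inha of the 12 granulosa markers and 5 of the 8 others were at 0 in every MII control. Their part in the stage changes was not tested. These are relative levels in polyA libraries, which start from polyadenylated RNA. No spike-in was used here, and fewer molecules per egg cannot be told apart from a change in the rest of the RNA. The same 16 members fell in both genotypes, 59.3% of each list, and 6 rose in both, 75% of the control and 54.5% of the cKO list. Of all genes, those that fell in both made up 71% of the control and 68.9% of the cKO list, and those that rose in both 78.3% and 73.3%. The genotypes were different females, so the lists share no sample.

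Among the 16 were Myocos, Cebpzos, Uchl1os, Hnf4aos, Prkag2os1 and Runx2os1. In control oocytes Myocos fell from a median of 412 CPM to 61.6 CPM (log2 -2.68 ± 0.2, edgeR adjusted p = 2.77e-08), and Myoc fell by 2.06. Ccdc42os fell from a median of 2.34 CPM to 0.0806 CPM (-4.06 ± 0.74, 0.000316). Cdiptos, a protein-coding member, went from 34 counts to 2, a ratio of 24 with a 95% counting interval of 6.15 to 206, and Runx2os1 from 27 counts to 0, at least 12.7-fold lower. B9d1os went from 18 counts to 1 in controls, a ratio of 25.4 with an interval of 4.01 to 1060, while B9d1 rose by 1.2. Kirrel3os fell by 3.74 ± 1.18 (0.017), though 1 MII control had 1.03 CPM and the other 7 were at 0, and the call was lost without GV control female V889. The call of B9d1os was lost without GV control female V856 or MII control female V853, with voom and in the fit of only these groups. In RiboMinus controls, with 1 MII female, none of these members was called. There the female means of Myocos were 51.2 and 52.7 CPM at GV and 165 CPM at MII. Ccdc42os (0.373 and 0.382 against 2.31 CPM) and Cdiptos (0.46 and 0.732 against 1.72 CPM) were higher at MII too. Runx2os1 (0.551 and 0.933 against 0.483 CPM), B9d1os (0 and 0.018 against 0 CPM) and Kirrel3os (0.393 and 1.03 against 0.888 CPM) were not. In cKO polyA oocytes the largest falls among the called members were those of Dlx6os1 (log2 -3.91), Evx1os (-3.84), Junos (-3.56), Cebpzos (-3.49) and Ppifos (-3.28). Alkbh3os1 had a larger log2 difference, -4.53 ± 1.79, that did not pass the test (adjusted p = 0.0505). It was named after its values were seen. Junos reached 10 counts in 3 polyA oocytes, 2 before MII and 1 at MII. Its call was lost without GV cKO female V857 or MII cKO female V841 or V842, and that of Evx1os without V857.

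The members that rose from GV to MII mostly did so with their sense genes. In control oocytes Frmd8os went from a median of 1.74 to 6.99 CPM (log2 2.0 ± 0.37, edgeR adjusted p = 0.000384) and Lrrc8dos, opposite a subunit of the volume-regulated anion channel, from 3.04 to 10.2 CPM (1.67 ± 0.34, 0.000808). Kdm6bos, opposite a histone demethylase gene, went from 30.5 to 64.3 CPM (1.22 ± 0.2, 9.57e-05). Uckl1os (1.19) and Slain1os (1.09) followed, with both calls lost under library totals and without GV control female V889, and that of Slain1os also without MII control female V853. The sense genes of these 5 rose too, by 1.34, 1.10, 1.21, 1.17 and 1.43. In cKO oocytes Pard3bos2 (log2 2.15 ± 0.71, 0.0204) and Bcas1os1 (1.99 ± 0.71, 0.0306) rose with their sense genes not called, and both calls were lost under library totals and without GV cKO female V857 or MII cKO female V842, that of Bcas1os1 also without V841. Hectd2os rose by 1.88 and Mkln1os by 1.85, both with the sense gene.

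In RiboMinus libraries 0 of 125 members were called from GV to MII in controls with edgeR, where 0.0% of all genes rose and 0.0% fell. The next 3 counts stand without the share of all genes under the same setting, so they do not set members apart from other genes. There were 20 at an unadjusted p under 0.05, and DESeq2 called 7. A fit of only these groups, which has 1 female at MII, called 30. In cKO oocytes Trpc5os alone was called (log2 2.35 ± 0.44, edgeR adjusted p = 0.0455), where 0.746% of all genes rose and 2.06% fell, and Trpc5, a cation channel gene, rose with it. Trpc5os had 0.533 to 2.08 CPM at GV and 3.27 to 11.4 CPM at MII, with no overlap. That call was lost without cKO female V1131 or V1166, or without oocyte V1166_1, V1166_2 or V1167_2, under library totals (0.0544) and in the fit of only these groups (0.137), and the count was 3 without V1126 and 4 without V1167.

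The change from GV to MII differed between the genotypes for 3 members in polyA libraries, all in the direction of a higher MII level in cKO oocytes, where 1.8% of all genes differed in that direction and 0.431% in the other. The log2 difference of the 2 changes was 1.69 ± 0.28 (SE, edgeR adjusted p = 0.00746) for Myocos, 1.82 ± 0.42 (0.0357) for Tomm6os and 1.94 ± 0.47 (0.0437) for Wdr83os. These calls were kept under 16, 11 and 7 of 18 alternatives. At RiboMinus MII the same 3 members were lower in cKO eggs (log2 -1.59, -1.96 and -0.961), and of these Myocos alone was called. Myocos fell in both genotypes and by less in the cKO, 0.99 against 2.68. Tomm6 differed in the same way (2.05 ± 0.36, 0.00994), and Myoc and Wdr83 did not pass the test (0.0672 and 0.902). The count was 11 without GV cKO female V888, 2 without MII cKO female V841 or control female V896, 1 without GV cKO female V857, GV control female V856, MII cKO female V842 or MII control female V853, and 0 without GV control female V889.

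**Figure D3:**
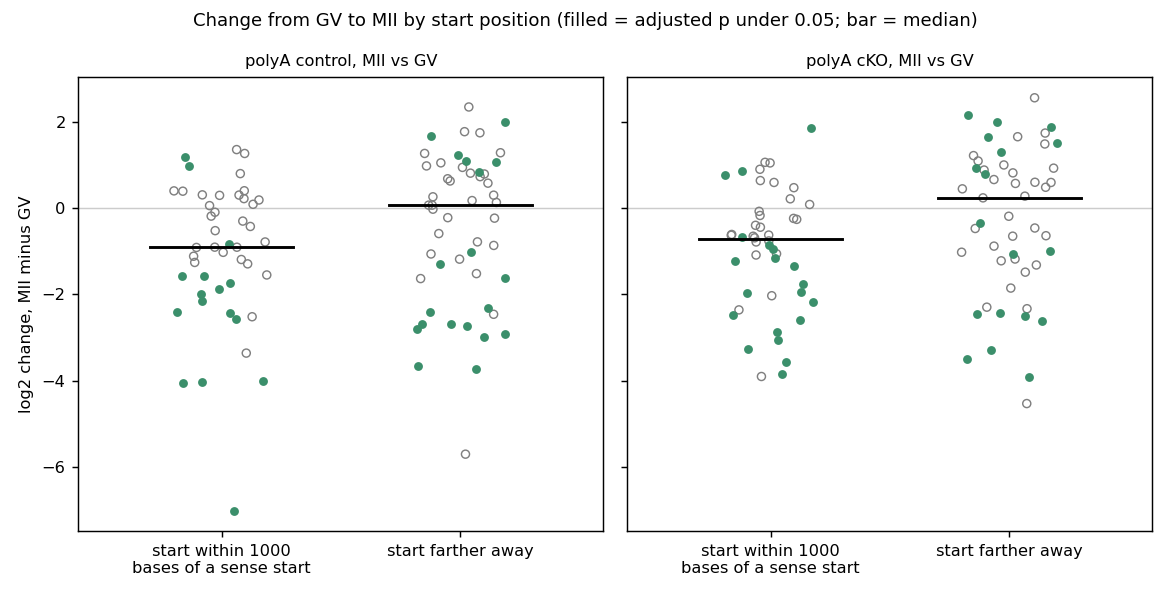
Log2 change from GV to MII (vertical axis) of the 97 members tested in polyA libraries, in control (left) and cKO oocytes (right), split by whether the member starts within 1000 bases of a start of its sense gene (horizontal axis); filled points were called, and bars are medians. The medians are -0.91 and 0.07 in control and -0.73 and 0.24 in cKO oocytes.

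The calls were also counted by where a member starts. Of the 97 members tested in polyA libraries, 46 start within 1000 bases of a start of the sense gene and 51 farther away. At MII 11 of the near members rose with the loss of Exosc10 and 1 fell, against 2 and 3 of the far members, where 12.9% of all genes rose and 7.68% fell. At GV3h 5 near members rose and 1 fell, against 3 and 8 of the far members (all genes 13.2% and 13.6%), and at GV the counts were 1 and 0 against 1 and 4 (all genes 3.92% and 4.37%). At RiboMinus MII 0 of 60 near members rose and 1 fell, against 2 and 1 of 65 far members (all genes 5.37% and 5.25%). At RiboMinus GV 0 members were called. From GV to MII in controls 2 near members rose and 14 fell, and 6 far members rose and 13 fell, where 18.3% of all genes rose and 27.1% fell. Over all 5 genotype comparisons 13 near members were called higher and 3 lower, and 5 far members higher and 10 lower, with Myocos in both directions, where 21.6% of all genes were called higher alone and 16.9% lower alone. The distance of 1000 bases was chosen with these data known, and no test of the split was made. Among the protein-coding members Cebpzos and Wdr83os were called higher and Myocos in both directions, and none was called lower alone.

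The windows at the start were counted in the same way. The 16 members with a window that were called higher in cKO had a median of 11.5 CG, from 3 to 46, and the 8 called lower a median of 4, from 0 to 32. Windows lie at the RefSeq start, which can be far from the GENCODE start. Among those called lower it was 16162 bases away for Hectd2os, whose window held 0 CG, 3422 for Usp46os2 and 2059 for Dlx6os1. TATAAA was in 0 of the 16 and in 2 of the 8. Arhgap20os, printed above, is 1 of these 2. The sets are small and were chosen by their calls, so these are descriptions.

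Members and sense genes often moved in the same direction, more so in pairs that share exon bases. Of the pairs with both tested, the same sign was seen in 65 of 90 at polyA GV, 61 of 90 at GV3h and 60 of 90 at MII, and in 88 of 118 at RiboMinus GV and 71 of 118 at RiboMinus MII. Where both were called, the direction was the same in 3 pairs and opposite in 1 at GV. The same counts were 8 and 2 for GV3h oocytes and 5 and 1 for MII eggs. The opposite ones were Cep83os, Cebpzos and Lppos, each higher over a lower sense gene. From GV to MII both were called in the same direction in 20 pairs and in opposite directions in 6 in controls, and in 17 and 2 in cKO oocytes. In controls 31 of 116 tested sense genes rose from GV to MII and 23 fell, where 18.3% of all genes rose and 27.1% fell.

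**Figure D4:**
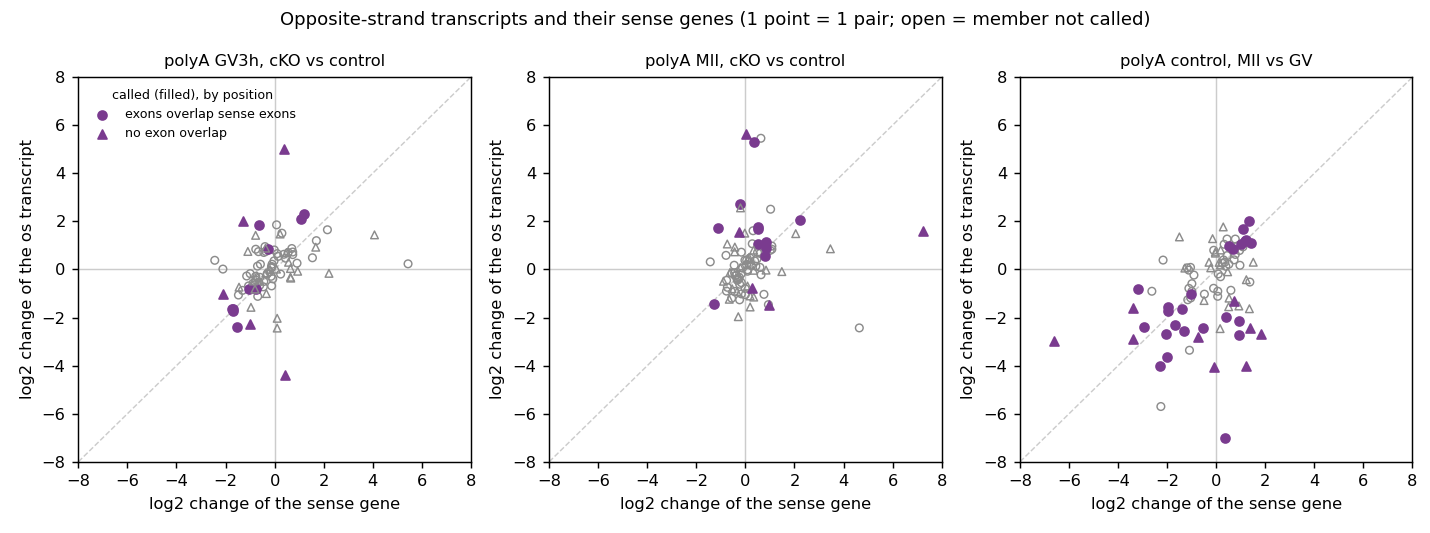
Log2 change of the member (vertical axis) against that of its sense gene (horizontal axis), 1 point per pair with both tested in polyA libraries, for cKO against control at GV3h and MII and for MII against GV in controls; filled points are called members, circles pairs that share exon bases and triangles pairs that do not, and the dashed line marks equal change. Most points lie at the lower left and the upper right, and the 3 called members above a fallen sense gene are at the upper left of the cKO against control panels.

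The pairs were also described by whether they share exon bases. Across the 61 pairs that share exon bases, Spearman's rank correlation of the 2 log2 changes was 0.688 at GV, 0.663 at GV3h and 0.431 at MII, and across the 29 pairs that do not it was 0.0737, 0.234 and 0.0806. The same sign was seen in 48, 43 and 47 of the 61 and in 17, 18 and 13 of the 29. In RiboMinus libraries it was seen in 63 of 78 and 25 of 40 at GV, and in 50 of 78 and 21 of 40 at MII. The pairs share their libraries, and the strand setting is not stated, so these are descriptions across pairs that are not independent replicates. Reads outside annotated genes made up a median of 10.9% of the counted total in polyA GV controls and 11.4% in cKO oocytes, 10.7% and 12.6% at GV3h, and 6.1% and 6.48% at MII, and their part in the member changes was not tested.

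Over the 5 genotype comparisons, which share no oocyte, 14 of the 93 members tested in both library types were higher in cKO in all 5 (15.1%) and 18 were lower in all 5 (19.4%). Of all 17251 genes tested in both, 21% and 16.9% were. The 18 include Igf1os, Rapgef4os2, Dlx6os1, Pard3bos2, Hectd2os and Arhgap20os, and the 14 include Cep83os, Kank4os, B9d1os and Uckl1os. Across the 12 comparisons, 69 of the 129 members tested in either library type were called in none (53.5%), where 36.2% of 20352 genes were.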

How the data were processed

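Single-oocyte polyA (64) and RiboMinus (22) libraries were used, and 22 rRNA files were not analysed here. The authors deposited whole-number read counts per gene for each oocyte. The submitters' processing notes name cutadapt 2.5, FastQC 0.11.8, STAR 2.7.2a, SAMtools 1.9, HTSeq 0.9.1, R 3.5.1, DESeq2 1.24.0 and the mm10 build. The annotation release and the strand setting are not given in the sources used here. Reads in no gene (5.85% to 14.17% of the counted total in polyA and 8.34% to 12.40% in RiboMinus libraries) and ambiguous reads (2.21% to 3.19% and 2.07% to 2.31%) were left out of library sizes and tests.

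Counts were summed per female (23 females, 16 polyA and 7 RiboMinus) and fitted with edgeR 4.0.16 in R 4.3.3, with all groups of a library type in 1 quasi-likelihood fit, TMM scaling and Benjamini-Hochberg adjustment over all genes with at least 10 counts in at least 3 oocytes, at a threshold of 0.05. CPM are TMM-scaled values per oocyte. Gene counts per oocyte set the precision, and ratio intervals (95%) and the floor of 3 counts over a group cover counting error only. Simulated counts for the polyA MII comparison (17886 genes) gave 25% of 2-fold and 61% of 4-fold changes back, with 3.37% false calls, and those for RiboMinus MII (19717 genes) 0% and 19%, with 0% false calls. Alternatives were DESeq2 1.42.0, voom of limma 3.58.1 on oocytes, blocked by female, oocytes as replicates, fits of only the groups compared, other scalings and filters, leaving out each female, and, added after seeing the data, each RiboMinus MII oocyte. Python 3.11.15, numpy 2.4.6, pandas 2.3.3, scipy 1.17.1 and matplotlib 3.10.9 were used for the rest.

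The members and lists were chosen with earlier results of these data known. Members are named where they were called in a genotype comparison (the 10 largest changes in each, and those called in 3 or more), in a stage comparison or its interaction (the 5 largest in each direction), or were among the 5 most abundant of a library type or next to the count threshold. Members named outside this rule were chosen after their values were seen.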

Additional observations from a re-analysis of the deposited data

Results flagged for a closer look

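In groups of 4 to 10 oocytes, 11 members were looked at for a single oocyte far from the others by Dixon's test, in 66 tests, of which chance flags about 1 in 20 groups, and 6 were flagged. Myocos had 508 CPM in polyA GV3h control oocyte V995_2, and the next highest of the 8 had 421 CPM. Kank4os had 4.22 CPM in polyA MII control egg V853_3, and the next had 0.14 CPM. B9d1os had 0.155 CPM in polyA MII control egg V896_2 and 0.072 CPM in RiboMinus GV control oocyte V1133_4, with the other 7 of each group at 0, where any read in 1 oocyte meets the rule, so these 2 say nothing about the oocytes. Cep83os had 6.58 CPM in RiboMinus GV control oocyte V1132_2 and 3.97 CPM in the next. Prkag2os1 had 4.76 CPM in RiboMinus GV cKO oocyte V1126_4, and 2.1 CPM in the next of the 7.

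The change from GV to MII differed between genotypes, by a test of the difference itself, for Wdr83os (log2 1.94, edgeR adjusted p = 0.0437), Tomm6os (1.82, 0.0357) and Myocos (1.69, 0.00746). The call of Myocos was lost without GV control female V889 (0.055), and those of Tomm6os and Wdr83os were kept under 11 and 7 of 18 alternatives.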

How the results depend on the processing

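Of 57 called values of named members, 25 kept their direction and call under every alternative run, and 0 of the 57 reversed. Of 863 alternative values, 129 lost a call and 24 gained one. Counts of members called moved by over 1.5 times as follows, and the cause was not tested. The share of all genes under each setting is not given here, so these counts do not set members apart from other genes. At polyA GV (6 called) there were 14 with DESeq2, 16 with voom, 37 with oocytes as replicates, 0 in a fit of only the groups compared and 1 to 11 on leaving out a female. At GV3h (17) there were 39 with oocytes, 26 in the fit of only these groups and 10 to 14 on leaving out a female, and at MII (17) 10 in the fit of only these groups and 13 to 15. At RiboMinus GV (0) there were 8 with no filter, 8 with DESeq2, 6 with voom, 31 with oocytes and 0 to 5 on leaving out a female. At RiboMinus MII (4) there were 15 with no filter, 7 at a mean of at least 50 counts, 26 with DESeq2, 19 with voom, 8 with oocytes and 2 to 17 on leaving out a female or oocyte. For GV3h against GV in cKO oocytes (0) there was 1 with no filter, 1 with DESeq2 and 1 with oocytes.

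From GV to MII, control polyA oocytes (35) gave 20 in the fit of only these groups and 25 to 34 without a female, and cKO oocytes (38) gave 67 with oocytes, 20 in the fit of only these groups and 26 to 32. RiboMinus controls (0) gave 3 with no filter, 7 with DESeq2, 7 with voom, 21 with oocytes and 30 in the fit of only these groups, and RiboMinus cKO oocytes (1) gave 0 with library totals, 7, 12, 14 and 8 in the same order, 0 in the fit of only these groups and 0 to 4 on leaving out a female or oocyte. The interaction (3) gave 9 with DESeq2, 9 with voom, 12 with oocytes, 0 in the fit of only its groups and 0 to 11 on leaving out a female. The rule gave 169 members at 5 counts and 105 at 20 counts in place of 135. No paired analysis was possible because each female gave oocytes of 1 stage and 1 genotype, and replicate numbers name oocytes within a female.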

Other observations

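Other genes named as antisense or known as noncoding antisense RNA were few: 9 symbols matched, and 8 without Hras, which only shares the letters and is left out here. Of the 8, 4 were tested in polyA libraries, where Nespas rose and Znrd1as fell between cKO and control eggs at MII (all genes 12.9% and 7.68%) and 0 were called at GV and GV3h with edgeR. From GV to MII these 2 fell in controls and Znrd1as in cKO oocytes, where 27.1% and 27.9% of all genes fell. All 18 genes of the nuclear exosome and its targeting factors were tested, with the deleted Exosc10 lower at each stage. Of the other 17, 4 rose and 2 fell at polyA GV3h (all genes 13.2% and 13.6%), C1d alone was called at GV, where it rose, and Zfc3h1 and Rbm7 alone at MII, where both rose (all genes 3.92% and 4.37%, and 12.9% and 7.68%).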
